A study of Homo sapiens with 12 samples.

Results

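The genes described here are 286 antisense long RNAs of CUTLL1 cells, each set beside the gene on the opposite strand that it is named after. They are the genes whose symbol ends in -AS and a number, out of 1713 such genes and 62069 gene identifiers in all, with a mean of at least 100 normalised read counts over the 12 libraries. CUTLL1 was established from a human T-cell malignancy and carries a chromosomal translocation that leaves NOTCH1 constantly active. The cells received Compound E, a gamma-secretase inhibitor (GSI), at 1 µM, or only its solvent DMSO, and poly-A RNA was sequenced 12 and 48 h later. The 4 groups are GSI 12 h, DMSO 12 h, GSI 48 h and DMSO 48 h, with 3 libraries each, all from 1 cell line. The genes were selected on this mean level over all libraries alike, and no comparison between groups entered the choice. A gene can still reach the mean through groups where it is high. VLDLR-AS1, SLC38A4-AS1 and SPRY4-AS1, for example, were below 100 in every DMSO 12 h library. Rises of such genes are not independent of the choice. The antisense genes just inside the threshold were SUCLA2-AS1 at a mean of 102, BAALC-AS1 at 103 and ZNF460-AS1 at 103. Those just outside it were PRC1-AS1 at 99.9, ZNF252P-AS1 at 99.8 and MIS18A-AS1 at 98.8.

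Antisense long RNAs are transcribed from the strand opposite to a gene, and many start close to the promoter of that gene and run away from it or through it. Individual members are known to act on chromatin at the same locus, on the stability of other RNAs or on microRNAs, while for most no function is known. Gamma-secretase cuts NOTCH receptors in the membrane and thereby frees the intracellular part that activates transcription together with the DNA-binding protein RBPJ, so the inhibitor lowers NOTCH1 output. Whether the authors counted reads by strand is not given in the sources used here. Without strand, reads of a gene and of its antisense partner cannot be told apart where their exons overlap. The share of overlapping exonic bases is therefore given for some of the named pairs. Where no share is given, the pair may share reads too.

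Recovered depth ranged from 73939612 to 160702764 reads per library. At 12 h it was 75781643 to 101491147 with GSI, against 109616415 to 122490751 with DMSO, without overlap. At 48 h it was 73939612 to 133774239 with GSI, against 94803786 to 160702764 with DMSO. The part of depth in the results below was not tested. All 12 T-cell marker genes were kept and abundant. They summed to 421345 to 464747 with GSI for 12 h, against 476702 to 519325 with DMSO, without overlap, and to 460085 to 484061 with GSI for 48 h, against 452155 to 491880 with DMSO. Of 5 B-cell markers only CD79A was kept, at 659 to 3042, while MS4A1 was at 0 and CD79B and PAX5 averaged at most 0.986. The 4 NK-cell markers summed to 215 to 479 over all libraries and the 4 fibroblast or epithelial markers to at most 12.1. The 5 myeloid markers, 3 of them kept, summed to 215 to 450.5 with GSI against 397 to 543 with DMSO at 12 h, and to 201 to 229 against 262 to 379 at 48 h. Relative to all libraries, the median log2 level of the kept myeloid markers was -0.66 to -0.04 with GSI against 0.30 to 0.75 with DMSO at 12 h, and -0.52 to -0.22 against 0.05 to 0.25 at 48 h, without overlap at either time. The 4 erythroid markers, 1 of them kept, summed to 12.7 to 37.9 with GSI against 5.31 to 12.4 with DMSO at 12 h, and to 18.6 to 44.6 against 4.49 to 10.4 at 48 h, again without overlap. For a list of 16 NOTCH1 target genes, the log2 level relative to the mean of all libraries (median over the list) came to 0.34, 0.61 and 0.69 with GSI for 12 h and to 0.75, 1.09 and 0.95 with DMSO. At 48 h it was -0.96, -0.98 and -0.78 with GSI and -0.38, -0.38 and -0.90 with DMSO. Gamma-secretase inhibitors are known to lower these genes, yet they differed more between the time labels than between the treatment labels, and at 48 h the treatment groups overlapped. Whether every library carries its intended label was not tested, so each group below is the group as labelled, and so is each direction. For a list of 26 hypoxia response genes, this level lay at 1.77, 0.27 and 1.86 with GSI for 12 h, against -0.92, -1.11 and -0.86 with DMSO. At 48 h it was 1.23, -0.22 and 0.68 with GSI, against -1.08 to -0.75 with DMSO. The GSI libraries labelled 2 were the lowest of their groups on this list at both times. The part of these marker, NOTCH1 and hypoxia differences in the results below was not tested.

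RefSeq gave a promoter window, from 250 bases before to 50 bases after the start, for 220 of the 286 antisense genes (GRCh38.p14). The windows of 6 antisense genes are shown. For all of them but DICER1-AS1, the gene or its ratio to the sense gene was among the largest shifts between GSI and DMSO at both times. DICER1-AS1 was among them at 48 h only. Not every gene among them at both times is shown, FGD5-AS1 and C1RL-AS1 being left out. The 6 were picked after their values were seen. Capitals mark matches, on either strand, to ACGTG or GCGTG, the core of the hypoxia response element, and to the TATA box TATAAA. The windows lie at chr6:36197154-36197453 (minus strand) for BRPF3-AS1, chr14:95157438-95157737 (plus strand) for DICER1-AS1, chr17:45247675-45247974 (plus strand) for MAP3K14-AS1, chr16:3059321-3059620 (minus strand) for MMP25-AS1, chr19:48255425-48255724 (plus strand) for CARD8-AS1 and chr2:135819941-135820240 (plus strand) for LCT-AS1.
BRPF3-AS1: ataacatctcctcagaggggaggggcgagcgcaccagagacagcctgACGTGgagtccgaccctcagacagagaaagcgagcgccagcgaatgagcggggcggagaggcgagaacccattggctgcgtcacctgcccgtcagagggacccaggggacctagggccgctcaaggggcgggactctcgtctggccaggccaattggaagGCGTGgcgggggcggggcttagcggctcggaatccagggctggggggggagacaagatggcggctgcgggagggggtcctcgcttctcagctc
DICER1-AS1: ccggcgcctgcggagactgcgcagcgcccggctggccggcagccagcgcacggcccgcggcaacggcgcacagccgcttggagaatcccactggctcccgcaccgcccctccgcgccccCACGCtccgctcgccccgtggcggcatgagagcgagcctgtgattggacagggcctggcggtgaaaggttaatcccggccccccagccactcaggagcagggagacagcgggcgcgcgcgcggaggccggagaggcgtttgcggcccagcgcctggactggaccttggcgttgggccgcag
MAP3K14-AS1: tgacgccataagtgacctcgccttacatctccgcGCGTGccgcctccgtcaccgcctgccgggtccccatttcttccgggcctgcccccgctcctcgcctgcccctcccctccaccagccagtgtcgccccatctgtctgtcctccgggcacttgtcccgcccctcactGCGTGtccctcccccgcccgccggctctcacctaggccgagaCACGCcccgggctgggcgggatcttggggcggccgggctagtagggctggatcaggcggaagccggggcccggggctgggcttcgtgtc
MMP25-AS1: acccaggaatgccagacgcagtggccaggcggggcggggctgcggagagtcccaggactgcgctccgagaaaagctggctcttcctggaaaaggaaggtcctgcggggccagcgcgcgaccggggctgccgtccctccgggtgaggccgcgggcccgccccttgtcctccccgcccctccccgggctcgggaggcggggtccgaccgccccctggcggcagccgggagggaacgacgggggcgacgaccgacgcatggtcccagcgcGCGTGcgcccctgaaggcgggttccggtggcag
CARD8-AS1: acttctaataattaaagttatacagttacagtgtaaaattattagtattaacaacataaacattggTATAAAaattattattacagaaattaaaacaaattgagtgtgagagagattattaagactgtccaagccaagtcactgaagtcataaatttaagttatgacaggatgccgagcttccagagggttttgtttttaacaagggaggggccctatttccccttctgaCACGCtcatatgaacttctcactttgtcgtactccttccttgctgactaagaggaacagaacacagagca
LCT-AS1: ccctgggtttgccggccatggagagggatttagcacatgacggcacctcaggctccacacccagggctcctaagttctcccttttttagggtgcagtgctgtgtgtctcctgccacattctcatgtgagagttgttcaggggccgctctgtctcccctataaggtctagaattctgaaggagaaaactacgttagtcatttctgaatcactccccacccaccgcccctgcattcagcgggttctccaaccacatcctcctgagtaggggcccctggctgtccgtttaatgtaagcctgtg
The first 4 belong to antisense genes that were higher with GSI and have a G+C content of 67.7%, 75%, 72.3% and 75.7%. The last 2 belong to antisense genes that were lower with GSI and have 35% and 54.7%. These picked windows differ more than the sets of antisense genes called at 12 h. There the median G+C content was 65.8% for those higher and 60.7% for those lower. The CARD8-AS1 window holds 1 TATAAA and 1 GCGTG on the opposite strand, and the LCT-AS1 window holds none of the motifs searched.

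Over the matched antisense genes, 66.8% of 220 windows held ACGTG or GCGTG, against 48.4% of all 27305 RefSeq windows and 59.3% of the 241 windows of the sense partners. The median G+C content was 64.3% in the antisense windows, 58.3% in all windows and 65.3% in those of the sense partners. Among antisense genes called higher at 12 h, 77.3% of 44 windows held one of these motifs, against 44.4% of 9 among those called lower and 65.3% of 167 among the rest. Their median G+C content was 65.8%, 60.7% and 64.0% in the same order, and its part in these shares was not tested. TGGGAA, the core of the RBPJ site, was in 20.9% of the antisense windows and 24.3% of all windows. CACGTG, the E-box, which contains ACGTG, was in 10.0% and 7.43%, and TATAAA in 5.91% and 12.0%. All motifs were looked for on both strands, and a match is a description of these letters only.

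Most antisense genes were less abundant than the genes they are named after. Their means ran from 102 to 30379 normalised counts with a median of 287, and 60 reached 1000. Per kilobase of exon, the median level was 154 for the antisense genes and 814 for the 272 sense partners kept by the filter on low values. In 64 of the 274 pairs with a kept partner the antisense gene was higher per kilobase, in 18 of them by at least 10-fold. The highest means belonged to OIP5-AS1, a conserved long RNA also known as cyrano, at 30379, and to FGD5-AS1 at 19156. PSMA3-AS1 followed at 8809.9, LCT-AS1 at 8236, UGDH-AS1 at 6467, THAP9-AS1 at 6223, THUMPD3-AS1 at 4933, ZNF407-AS1 at 4318, PCBP1-AS1 at 4242 and MRPL20-AS1 at 4032. Per kilobase, FGD5-AS1 stood at 3733 beside 5.61 for FGD5, a guanine nucleotide exchange factor best known from endothelial cells. LCT-AS1 stood at 4423 beside 80.1 for LCT, the intestinal lactase. OIP5-AS1 stood at 2397 beside 1196 for OIP5, a centromere protein.

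The partners are 283 different protein-coding genes, since CACNA1C, DLGAP1 and PTOV1 have 2 antisense genes each in the set. For 12 antisense genes the sense partner was not kept, among them CDKN2B-AS1, also known as ANRIL, whose partner CDKN2B, an inhibitor of the cell cycle kinases CDK4 and CDK6, averaged 0.611. TP73-AS1 and PITX1-AS1 averaged 1426 and 1027 beside 5.36 for TP73 and 5.99 for PITX1. GTF2I was listed at 0 in all libraries, and whether it was absent or lost in mapping or naming was not tested. In the gene models of GENCODE release 29, 223 of the 286 carry the biotype antisense, and 2, KRT10-AS1 and KCNJ5-AS1, are annotated as protein-coding. By layout, the starts of the 2 genes overlapped in 125 pairs, the antisense gene lay inside the partner in 64, the ends overlapped in 61, the antisense gene spanned the partner in 18, and the genes lay apart with starts facing away in 17. In 1 pair the genes lay apart with ends facing. Exons of the pair overlapped in 216 cases, with a median of 6.96% of the antisense exonic bases over all 286 and a maximum of 68.5% in CAMTA2-AS1.

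At 12 h, antisense genes were more often higher than lower with GSI. Of 286, 51 rose and 11 fell at an adjusted p under 0.05 (limma, Benjamini-Hochberg adjusted over 19281 genes). That is 17.8% higher and 3.85% lower, against 11.1% and 14.9% of the 12794 genes with the same mean threshold. The median log2 fold change was 0.18 for the antisense genes and -0.03 for those 12794 genes. Among the 272 kept sense partners 29 rose and 34 fell, with a median of -0.02. Scaling each library to the upper quartile of its own values above 0 gave 35 antisense genes higher and 6 lower, and the upper quartile over the kept genes 61 and 8. Over genes above 0 in any library it gave 43 and 25, beside 23.1% of the calls among all genes with that mean being higher. The sense partners' calls changed their majority with the scaling, at 19 higher and 10 lower, 36 and 22, and 22 and 66 in the same order of scalings. The last scalings, over a common set of genes, were chosen after seeing the data. Groups did not overlap for 78 antisense genes with GSI higher and 28 with GSI lower, 27.3% and 9.79%, against 17.3% and 23.2% of the genes with that mean.

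The antisense genes' median log2 level relative to all libraries was 0.14, 0.04 and 0.08 with GSI for 12 h, against -0.07, -0.27 and -0.03 with DMSO. DMSO 12 h library 2 was the lowest, and the 2 groups did not overlap. Without that library, 21 antisense genes were called higher and 4 lower, and the median fold change was 0.09. Without GSI 12 h library 1 the counts were 19 and 3, and without GSI 12 h library 3 they were 30 and 5. Among all genes with a mean of at least 100, 5.78% were called higher and 5.64% lower without DMSO 12 h library 2. These shares were 4.74% and 5.66% without GSI 12 h library 1, and 7.2% and 8.11% without GSI 12 h library 3. The sense partners' counts were 12 higher and 15 lower, 10 and 15, and 15 and 21 without the same libraries. The T-cell, myeloid and erythroid markers given above differed between these same groups, and their part in the antisense shift was not tested. Of the calls, 18 of 51 higher and 3 of 11 lower remained in each of the 12 fits that left out 1 library and in edgeR and DESeq2 on recovered reads. Fewer cells of a kind and less RNA per cell cannot be told apart in such bulk samples.

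**Figure D1:**
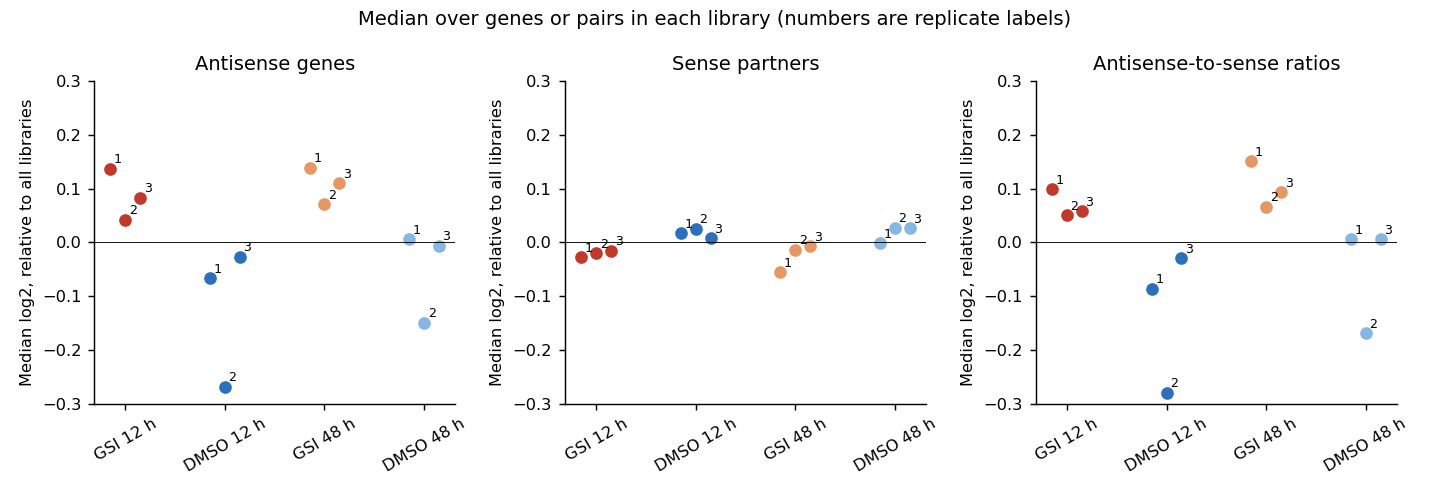
Median log2 level over the antisense genes, their kept sense partners and the antisense-to-sense ratios in each library, relative to the mean of all 12 libraries. Each point is a library with its replicate number. For antisense genes the GSI libraries lie between 0.04 and 0.14, and the DMSO libraries labelled 2 are lowest at -0.27 and -0.15.

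**Figure D2:**
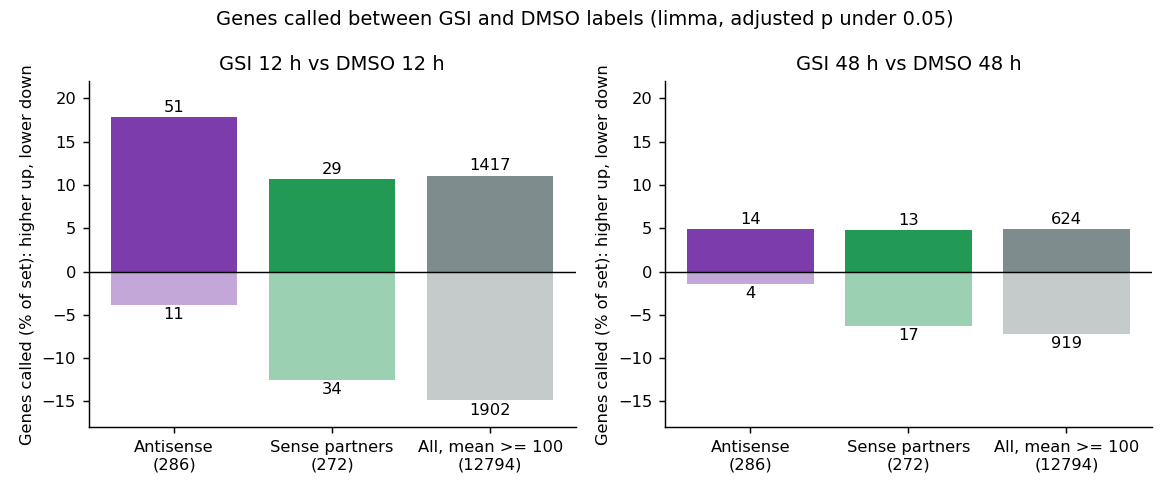
Percent of antisense genes, sense partners and all genes with a mean of at least 100 called higher (above 0) or lower (below 0) with GSI, with the number called on each bar. At 12 h 51 antisense genes are higher and 11 lower, while 29 sense partners are higher and 34 lower.

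The ratio of antisense to sense was tested within each library, where the scaling of the libraries cancels. At 12 h it rose in 41 of 274 pairs and fell in 10. The background over all 644 pairs with both genes kept, whatever their mean, was 12.3% higher and 2.95% lower, so the antisense genes with a mean of at least 100 were near the share of all pairs. The median change of the ratio was 0.20 on the log2 scale, and the antisense gene lay above its partner in 182 pairs. Without DMSO 12 h library 2 the median was 0.10, with 16 ratios called higher and 4 lower. The calls were 18 and 3 without GSI 12 h library 1, 24 and 6 without GSI 12 h library 3, and 25 and 6 without DMSO 12 h library 1. For ratio counts with libraries left out or with a replicate block, here and below, the share over all pairs is not given. Whether those counts exceed that share was not tested. Of the 51 antisense genes that rose, 48 had a kept partner. The partner rose too in 9 pairs, fell in 6 and was not called in 33. Of all 272 kept sense partners, 10.7% were called higher and 12.5% lower. A falling partner beside a rising antisense gene was thus near the share of all partners. The 6 with a falling partner were BRPF3-AS1, DICER1-AS1, MAP3K14-AS1, NIFK-AS1, SPEN-AS1 and HDAC4-AS1. Of the 11 that fell, the partner fell in 2 pairs (LCT and MRPL20), rose in 1 (FGD5) and was not called in 8. In 45 pairs only the sense gene was called, 19 higher and 26 lower.

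BRPF3-AS1 (ENSG00000246982, chromosome 6) rose where BRPF3, a scaffold protein of the HBO1 histone acetyltransferase complex, fell. BRPF3-AS1 had 977, 399 and 740.1 in the GSI 12 h libraries, against 168, 179 and 298 in the DMSO 12 h libraries, a log2 fold change of 1.66 ± 0.39 (SE, adjusted p = 0.0117). BRPF3 had 4308, 5166 and 4852 in the GSI 12 h libraries, against 7130.3, 7559 and 6271 in the DMSO 12 h libraries, a fold change of -0.55 ± 0.11 (SE, adjusted p = 0.00627). The groups did not overlap for either gene, and GSI library 2 was the lowest antisense value with GSI. BRPF3-AS1 was not called without GSI 12 h library 1 (adjusted p = 0.0613), while the ratio, at 2.21 ± 0.43 (SE, adjusted p = 0.00295), was called in each leave-one-out fit. No antisense exonic base lies in BRPF3 exons. Its window printed above holds 1 ACGTG and 1 GCGTG.

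DICER1-AS1 (chromosome 14), MAP3K14-AS1 (chromosome 17) and NIFK-AS1 (chromosome 2) moved the same way relative to their partners. DICER1 is the ribonuclease that cuts microRNA precursors. DICER1-AS1 had 1074, 733 and 861 in the GSI 12 h libraries, against 445, 309.7 and 442 in the DMSO 12 h libraries, a log2 fold change of 1.16 ± 0.20 (SE, adjusted p = 0.0038). DICER1 had 21772, 21806 and 22646 in the GSI 12 h libraries, against 28203, 28124 and 28183 in the DMSO 12 h libraries, a fold change of -0.35 ± 0.07 (SE, adjusted p = 0.00496). Neither gene's groups overlapped, and the DICER1 libraries of each group lay within a narrow range. MAP3K14, also called NIK, is the kinase of the non-canonical NF-kappaB pathway. MAP3K14-AS1 had 767, 558 and 576 in the GSI 12 h libraries, against 245, 309 and 314 in the DMSO 12 h libraries, a fold change of 1.12 ± 0.22 (SE, adjusted p = 0.0058), beside -0.43 ± 0.10 (SE, adjusted p = 0.0135) for MAP3K14. NIFK is a nucleolar protein that binds Ki-67. NIFK-AS1 had 1472, 1440.0 and 1306 in the GSI 12 h libraries, against 917, 761 and 1052 in the DMSO 12 h libraries, a fold change of 0.64 ± 0.13 (SE, adjusted p = 0.00703). NIFK had 2782, 3859 and 2782 in the GSI 12 h libraries, against 5070.2, 7003 and 5875 in the DMSO 12 h libraries, a fold change of -0.93 ± 0.16 (SE, adjusted p = 0.00369). All GSI values of NIFK were below all DMSO values. The ratios rose by 1.51 ± 0.22 (SE, adjusted p = 0.000366), 1.55 ± 0.21 (SE, adjusted p = 0.000247) and 1.57 ± 0.21 (SE, adjusted p = 0.000247) for DICER1, MAP3K14 and NIFK, and all 3 were called in each leave-one-out fit. MAP3K14 itself was not called without DMSO 12 h library 2 (adjusted p = 0.0642). The exonic overlap was 2.15%, 18.9% and 7.21% in the same order of genes.

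**Figure D3:**
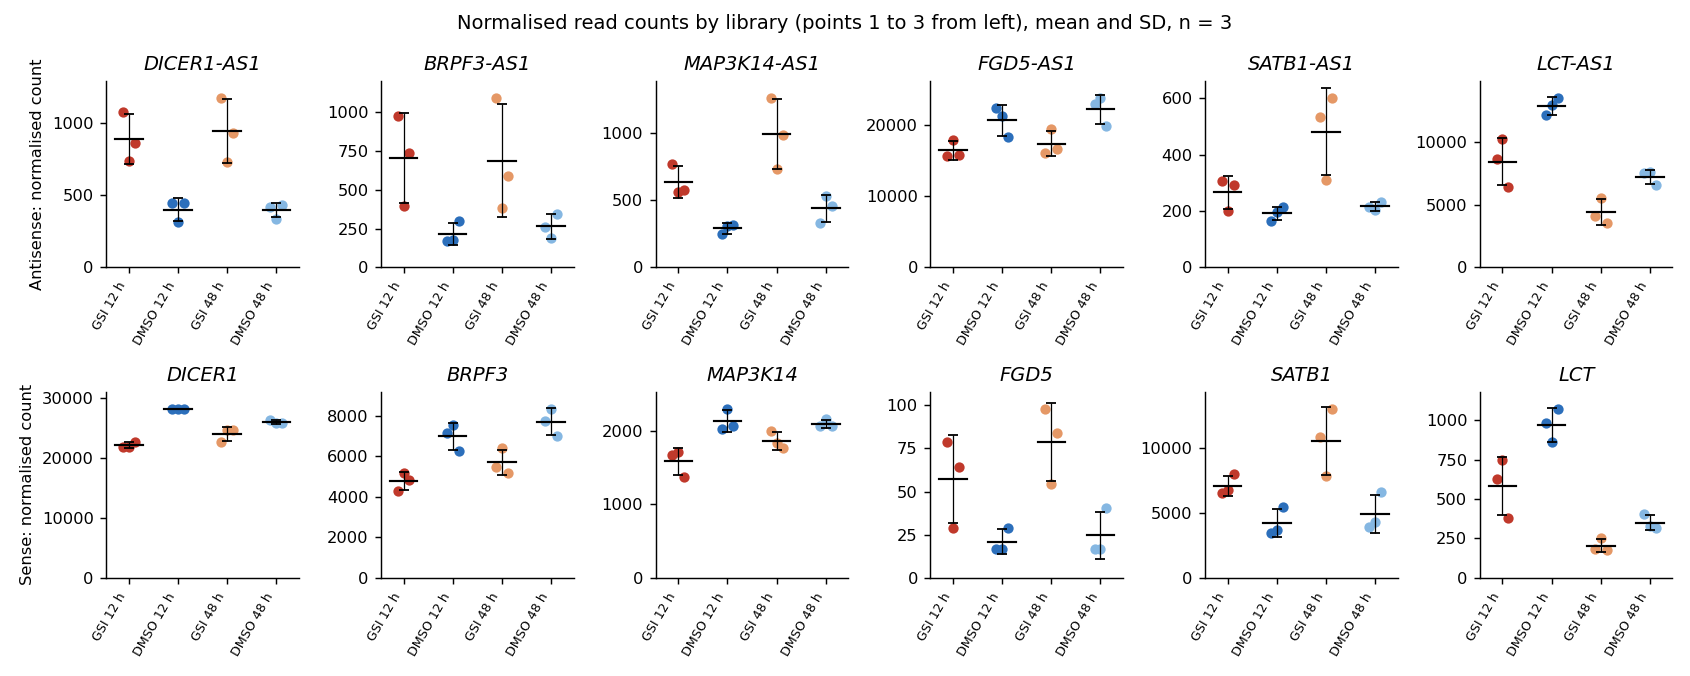
Normalised read counts of 6 antisense genes (top) and their sense partners (bottom) in each library, with the mean and SD of each group (n = 3). DICER1-AS1 lies between 733 and 1074 in GSI 12 h libraries and at most at 445 in DMSO 12 h libraries, while DICER1 is at most at 22646 with GSI and at least at 28124 with DMSO.

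In 9 pairs both genes rose at 12 h. They were named after MMP25, KMT2E, MELTF, ZNF436, CORO1A, KIF25, YEATS2, VLDLR and ERICH6. MMP25 is a membrane-anchored matrix metalloproteinase. MMP25-AS1 (chromosome 16) had 1789, 740.2 and 1656 in the GSI 12 h libraries, against 475, 379 and 639 in the DMSO 12 h libraries. MMP25 had 304, 114 and 299.5 in the GSI 12 h libraries, against 81.4, 55.9 and 99.0 in the DMSO 12 h libraries. The groups did not overlap for either gene. Their log2 fold changes were 1.42 ± 0.31 (SE, adjusted p = 0.0087) for MMP25-AS1 and 1.50 ± 0.37 (SE, adjusted p = 0.0145) for MMP25, and the ratio changed by -0.08 ± 0.18 (SE, adjusted p = 0.814). Of the MMP25-AS1 exonic bases 20.1% lie in MMP25 exons, and per kilobase the antisense gene was the higher of the 2, at 182 against 52.3 for MMP25. MMP25 was not called without GSI 12 h library 1 or 3 or DMSO 12 h library 2 (adjusted p = 0.0725, 0.059 and 0.066).

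VLDLR is the very low density lipoprotein receptor. VLDLR-AS1 (chromosome 9) had 141, 98.7 and 694 in the GSI 12 h libraries, against 73.4, 58.9 and 56.6 in the DMSO 12 h libraries. VLDLR had 3587, 1835 and 9827 in the GSI 12 h libraries, against 1117, 1299.8 and 1156 in the DMSO 12 h libraries. GSI library 3 was by far the highest for both genes, and the groups did not overlap. The fold changes were 1.75 ± 0.58 (SE, adjusted p = 0.0464) for VLDLR-AS1 and 1.76 ± 0.48 (SE, adjusted p = 0.0223) for VLDLR, with an exonic overlap of 12.3%. VLDLR-AS1 was not called without GSI 12 h library 1 or 3, DMSO 12 h library 1, 2 or 3, GSI 48 h library 1 or DMSO 48 h library 1, 2 or 3 (adjusted p = 0.0683, 0.15, 0.0742, 0.12, 0.0985, 0.0551, 0.0577, 0.0571 and 0.0548), nor VLDLR without GSI 12 h library 1 or 3 or DMSO 12 h library 1, 2 or 3 (adjusted p = 0.0619, 0.072, 0.0557, 0.0588 and 0.0503).

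ZNF436 encodes a zinc finger protein. ZNF436-AS1 (chromosome 1) had 1688, 897 and 1166 in the GSI 12 h libraries, against 522, 383 and 551 in the DMSO 12 h libraries, a fold change of 1.33 ± 0.27 (SE, adjusted p = 0.00635). ZNF436 rose less, by 0.67 ± 0.13 (SE, adjusted p = 0.00524), and the ratio rose by 0.67 ± 0.22 (SE, adjusted p = 0.0474). That ratio was not called without GSI 12 h library 1, 2 or 3, DMSO 12 h library 1 or 2, GSI 48 h library 3 or DMSO 48 h library 1 or 3 (adjusted p = 0.196, 0.0536, 0.0773, 0.0921, 0.21, 0.0617, 0.0572 and 0.0502). For KIF25, a kinesin, the sense gene rose more. KIF25-AS1 (chromosome 6) had 300.3, 276 and 359 in the GSI 12 h libraries, against 163, 78.9 and 208 in the DMSO 12 h libraries, a fold change of 1.15 ± 0.35 (SE, adjusted p = 0.0329). KIF25 had 40.8, 22.8 and 26.9 in the GSI 12 h libraries, against 3.54, 3.00 and 7.07 in the DMSO 12 h libraries, a fold change of 2.52 ± 0.42 (SE, adjusted p = 0.00319). All KIF25 values were low, and the fold change on the log2(value + 1) scale understates such a gene. The ratio fell by 1.37 (adjusted p = 0.02), a call that was lost without GSI 12 h library 1 or DMSO 12 h library 1 (adjusted p = 0.107 and 0.089). KIF25-AS1 itself was not called without GSI 12 h library 1 or 3 or DMSO 12 h library 2 (adjusted p = 0.0871, 0.0998 and 0.136). SLC38A4-AS1 (chromosome 12), whose partner, an amino acid transporter, was not kept, had 238, 214 and 318 in the GSI 12 h libraries, against 99.1, 73.9 and 71.6 in the DMSO 12 h libraries. Its groups lay well apart, with a fold change of 1.64 ± 0.20 (SE, adjusted p = 0.00144).

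Among the antisense genes that fell at 12 h, TRAPPC12-AS1 (chromosome 2) fell furthest. It had 101, 93.6 and 59.1 in the GSI 12 h libraries, against 157, 189.8 and 164 in the DMSO 12 h libraries, a log2 fold change of -1.03 ± 0.22 (SE, adjusted p = 0.00786). The groups did not overlap, and GSI library 3 was the lowest. TRAPPC12, a subunit of the TRAPP vesicle tethering complexes, changed by -0.06 ± 0.09 (SE, adjusted p = 0.663). SLC25A25-AS1 (chromosome 9) had 1723, 1579 and 1550.1 in the GSI 12 h libraries, against 2932, 2995 and 2336 in the DMSO 12 h libraries, a fold change of -0.76 ± 0.13 (SE, adjusted p = 0.00341). SLC25A25, a mitochondrial carrier of ATP-Mg and phosphate, changed by -0.05 ± 0.08 (SE, adjusted p = 0.717). Both antisense genes were called in each leave-one-out fit. The ratios changed by -0.97 ± 0.25 (SE, adjusted p = 0.0163) for TRAPPC12 and -0.71 ± 0.13 (SE, adjusted p = 0.00198) for SLC25A25. The TRAPPC12 ratio was not called without GSI 12 h library 3 or DMSO 12 h library 2 (adjusted p = 0.0773 and 0.0914).

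CARD8-AS1 (chromosome 19) had 277, 377 and 403 in the GSI 12 h libraries, against 647, 641 and 416 in the DMSO 12 h libraries, a fold change of -0.68 ± 0.21 (SE, adjusted p = 0.0337). DMSO library 3 lay close to the highest GSI library. CARD8, an inflammasome sensor, changed by 0.02 ± 0.12 (SE, adjusted p = 0.917). IQCH-AS1 (chromosome 15) changed by -0.76 ± 0.23 (SE, adjusted p = 0.035) and SH3BP5-AS1 (chromosome 3) by -0.74 ± 0.21 (SE, adjusted p = 0.0233). The partners IQCH, which encodes an IQ motif protein, and SH3BP5, an activator of the small GTPase RAB11, changed by 0.11 ± 0.17 (SE, adjusted p = 0.67) and 0.23 ± 0.26 (SE, adjusted p = 0.559). CARD8-AS1 was not called without GSI 12 h library 1 or DMSO 12 h library 1 or 2 (adjusted p = 0.143, 0.106 and 0.126), nor with upper-quartile scaling over the kept genes (adjusted p = 0.051). IQCH-AS1 was not called without GSI 12 h library 1 or 3 or DMSO 12 h library 2 (adjusted p = 0.101, 0.125 and 0.151), nor SH3BP5-AS1 without GSI 12 h library 1 or 3 or DMSO 12 h library 1 or 2 (adjusted p = 0.0843, 0.0846, 0.069 and 0.1).

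LCT-AS1 (chromosome 2), which lies inside LCT, was among the most abundant and fell together with LCT. LCT-AS1 had 8668, 10249 and 6438 in the GSI 12 h libraries, against 12159, 12998 and 13533 in the DMSO 12 h libraries, a fold change of -0.63 ± 0.17 (SE, adjusted p = 0.02). LCT had 627, 744 and 381 in the GSI 12 h libraries, against 983, 858 and 1072 in the DMSO 12 h libraries, a fold change of -0.78 ± 0.22 (SE, adjusted p = 0.0271). In both, every GSI library lay below every DMSO library, and GSI library 3 was the lowest. The ratio changed by 0.15 ± 0.16 (SE, adjusted p = 0.563), and 4.24% of the antisense exonic bases lie in LCT exons. LCT-AS1 was not called without GSI 12 h library 1 or 3 or DMSO 12 h library 2 or 3 (adjusted p = 0.0569, 0.0765, 0.064 and 0.0534), nor LCT without GSI 12 h library 1 or 3 or DMSO 12 h library 1, 2 or 3 (adjusted p = 0.0594, 0.0962, 0.0648, 0.0528 and 0.0758). MRPL20-AS1 (chromosome 1) changed by -0.45 ± 0.10 (SE, adjusted p = 0.00973) and MRPL20, a protein of the mitochondrial ribosome, by -0.67 ± 0.15 (SE, adjusted p = 0.00938). MRPL20-AS1 was not called without GSI 12 h library 1 (adjusted p = 0.051) or when scaled to the upper quartile of each library's own genes (adjusted p = 0.0662).

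FGD5-AS1 (chromosome 3) and FGD5 moved in opposite directions. FGD5-AS1 had 15642, 17899 and 15715 in the GSI 12 h libraries, against 22432, 21217 and 18256 in the DMSO 12 h libraries, a fold change of -0.33 ± 0.11 (SE, adjusted p = 0.0438). FGD5 had 78.7, 29.1 and 64.5 in the GSI 12 h libraries, against 16.8, 17.0 and 29.2 in the DMSO 12 h libraries, a fold change of 1.34 ± 0.43 (SE, adjusted p = 0.0404). The antisense groups did not overlap, while those of FGD5 overlapped, with GSI library 2 just below DMSO library 3. FGD5 was not called without GSI 12 h library 1 or 3, DMSO 12 h library 1 or 2 or GSI 48 h library 3 (adjusted p = 0.162, 0.122, 0.105, 0.126 and 0.0519). The ratio changed by -1.67 ± 0.47 (SE, adjusted p = 0.0261). With upper-quartile scaling FGD5-AS1 was not called over each library's own genes (adjusted p = 0.204) or over the kept genes (adjusted p = 0.102). FGD5-AS1 was not called without GSI 12 h library 1 or 3, DMSO 12 h library 1 or 2, GSI 48 h library 3 or DMSO 48 h library 1 (adjusted p = 0.143, 0.12, 0.136, 0.132, 0.0552 and 0.0542), and its ratio was not called without GSI 12 h library 1 or 3 or DMSO 12 h library 1 or 2 (adjusted p = 0.131, 0.0912, 0.0925 and 0.102). For C1RL, a serine protease related to complement C1r, the ratio fell, the sense gene rose and the antisense gene was not called. C1RL had 917, 686 and 676 in the GSI 12 h libraries, against 297, 309.7 and 290.0 in the DMSO 12 h libraries, a fold change of 1.33 ± 0.17 (SE, adjusted p = 0.00158). C1RL-AS1 (chromosome 12) changed by 0.35 ± 0.15 (SE, adjusted p = 0.103), and the ratio by -0.97 ± 0.18 (SE, adjusted p = 0.00198), called in each leave-one-out fit.

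The following antisense genes are named for the role of their partners. LEF1 is a transcription factor of the WNT pathway and of early T cells. LEF1-AS1 (chromosome 4) had 2121, 1813 and 2047 in the GSI 12 h libraries, against 1224, 1216 and 1551 in the DMSO 12 h libraries, a fold change of 0.59 ± 0.13 (SE, adjusted p = 0.00825). LEF1 changed by -0.04 ± 0.11 (SE, adjusted p = 0.807), and the ratio by 0.63 ± 0.12 (SE, adjusted p = 0.00245). The LEF1-AS1 groups did not overlap. ZEB1-AS1 (chromosome 10) changed by 0.75 ± 0.20 (SE, adjusted p = 0.0198) beside -0.03 ± 0.09 (SE, adjusted p = 0.816) for ZEB1, a zinc finger repressor. CD27-AS1 (chromosome 12) changed by 0.56 ± 0.16 (SE, adjusted p = 0.0226) beside 0.52 ± 0.30 (SE, adjusted p = 0.231) for CD27, a costimulatory receptor. ZEB1-AS1 was not called without GSI 12 h library 1 or 3 or DMSO 12 h library 2 (adjusted p = 0.0813, 0.0606 and 0.0872), nor CD27-AS1 without GSI 12 h library 1 or DMSO 12 h library 1 or 2 (adjusted p = 0.106, 0.0816 and 0.0565).

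For PRKCQ, the protein kinase C of T-cell receptor signalling, only the sense gene was called. It had 8579, 8229.9 and 8507 in the GSI 12 h libraries, against 6777, 5723 and 6989 in the DMSO 12 h libraries, a fold change of 0.38 ± 0.09 (SE, adjusted p = 0.0119). PRKCQ-AS1 (chromosome 10) changed by -0.24 ± 0.12 (SE, adjusted p = 0.167), and the ratio by -0.62 ± 0.16 (SE, adjusted p = 0.0181). PRKCQ was not called without GSI 12 h library 1 or DMSO 12 h library 2 (adjusted p = 0.0504 and 0.0589), nor the ratio without GSI 12 h library 1 or 3 or DMSO 12 h library 2 (adjusted p = 0.0883, 0.0752 and 0.102). MYB-AS1 (chromosome 6), inside the proto-oncogene MYB, had 193, 94.9 and 330.4 in the GSI 12 h libraries, against 136, 122 and 147 in the DMSO 12 h libraries, with a fold change of 0.44 ± 0.35 (SE, adjusted p = 0.386), and was not called. GSI library 2 lay below and GSI library 3 far above the DMSO values. TRAF3IP2-AS1, FOXN3-AS1, CDKN2B-AS1, ITGB2-AS1 and ARRDC1-AS1 were not called at 12 h either, with fold changes of 0.26, -0.18, 0.08, 0.15 and 0.04. Of the 10 most abundant, FGD5-AS1, LCT-AS1 and MRPL20-AS1 were called, and the other 7 changed by -0.29 (ZNF407-AS1) to 0.19 (THUMPD3-AS1).

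**Figure D4:**
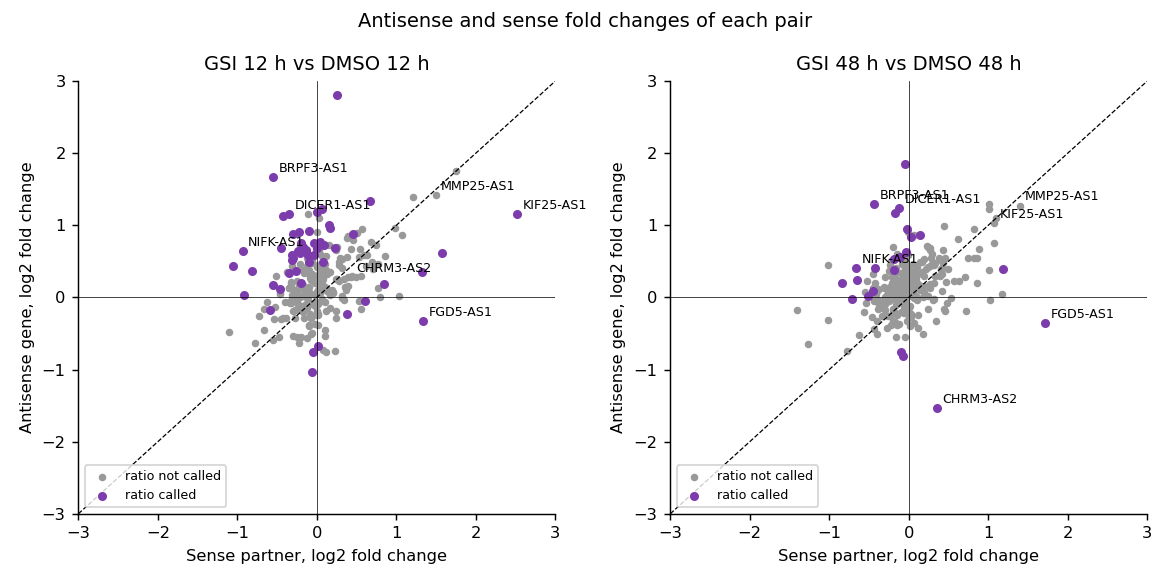
Log2 fold change of each antisense gene (vertical) against that of its sense partner (horizontal) for 274 pairs, GSI against DMSO at 12 h (left) and 48 h (right). Purple points are pairs whose ratio was called, 41 higher and 10 lower at 12 h and 18 higher and 5 lower at 48 h. The dashed line marks equal change.

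At 48 h, 14 antisense genes rose and 4 fell with GSI. The background among genes with the same mean threshold was 4.88% higher and 7.18% lower, and the antisense genes stood at 4.90% and 1.40%, so their share called higher was near that background. The median log2 fold change was 0.14, against -0.05 for all genes with that mean, and 13 sense partners rose and 17 fell. The 3 upper-quartile scalings gave 14 and 1, 20 and 3, and 12 and 8 for antisense genes. For sense partners they gave 10 and 3, 21 and 13, and 13 and 27, and for all genes with that mean 483 and 203, 962 and 591, and 525 and 1630, against 624 and 919 with the deposited scaling. With the replicate number as a block over all libraries, 56 antisense genes were called higher and 10 lower, beside 12.6% and 21.0% of the genes with that mean. In this fit 89 sense partners and 65 ratios were called in either direction, the ratios without a share over all pairs beside them. The block also spans the 12 h libraries, whose same-numbered pairs did not all reach the cutoff of 0.1 for pairing given below. Groups did not overlap for 82 antisense genes with GSI higher and 20 with GSI lower, 28.7% and 6.99%, against 16.5% and 23.3% of the genes with that mean.

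Relative to all libraries, the antisense genes lay at a median of 0.14, 0.07 and 0.11 with GSI for 48 h and 0.01, -0.15 and -0.01 with DMSO. DMSO library 2 was again the lowest. The count of calls turned on single libraries. It was 1 without GSI 48 h library 1, GSI 48 h library 3 or DMSO 48 h library 1, 4 without DMSO 48 h library 2, 33 without GSI 48 h library 2 and 29 without GSI 12 h library 2. Among all genes with a mean of at least 100, the shares called higher and lower were 0.43% and 0.446%, 0.422% and 0.352%, and 0.657% and 0.688% without the first libraries named. They were 1.56% and 1.02%, 7.36% and 12.0%, and 6.91% and 10.8% without the others, in the same order. DICER1-AS1 was the only antisense gene of the 18 called in every leave-one-out fit, in edgeR and in DESeq2. The ratio rose in 18 pairs and fell in 5, beside a background of 6.06% and 1.40% over all pairs, 7.45% together, with 184 pairs in which the antisense gene lay above its partner. These calls were 3 higher and 0 lower without GSI 48 h library 1, 2 and 1 without GSI 48 h library 3, 4 and 0 without DMSO 48 h library 1, and 6 and 1 without DMSO 48 h library 2. The median change of the ratio was 0.18, and 0.11 without DMSO 48 h library 2.

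DICER1-AS1 had 1169.8, 729 and 928 in the GSI 48 h libraries, against 419.7, 336 and 429.8 in the DMSO 48 h libraries, a log2 fold change of 1.23 ± 0.20 (SE, adjusted p = 0.00818), beside -0.12 ± 0.07 (SE, adjusted p = 0.257) for DICER1. MAP3K14-AS1 had 1259, 733 and 982 in the GSI 48 h libraries, against 326, 531 and 455 in the DMSO 48 h libraries, a fold change of 1.17 ± 0.22 (SE, adjusted p = 0.0122), beside -0.17 ± 0.10 (SE, adjusted p = 0.296) for MAP3K14. In both antisense genes the groups did not overlap. The ratios rose by 1.35 ± 0.22 (SE, adjusted p = 0.0035) for DICER1 and 1.34 ± 0.21 (SE, adjusted p = 0.0035) for MAP3K14, and both were called in each leave-one-out fit. MAP3K14-AS1 itself was not called without GSI 48 h library 1 or 3 or DMSO 48 h library 1 (adjusted p = 0.0698, 0.0633 and 0.0525). BRPF3-AS1 had 1093, 384 and 591 in the GSI 48 h libraries, against 257, 189 and 346 in the DMSO 48 h libraries. GSI library 1 was the highest, the groups did not overlap, and it was not called without the block, at 1.29 ± 0.39 (SE, adjusted p = 0.053). With the replicate block over all libraries, including those at 12 h that did not all reach the cutoff for pairing, limma called it (adjusted p = 0.00908). The BRPF3 ratio was called, at 1.73 ± 0.43 (SE, adjusted p = 0.023), but not without GSI 48 h library 1 or 3 or DMSO 48 h library 1 or 2 (adjusted p = 0.136, 0.0828, 0.0622 and 0.117).

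Both antisense genes inside CACNA1C, the pore-forming subunit of an L-type calcium channel, rose at 48 h together with it. CACNA1C-AS1 (chromosome 12) had 2743, 1682 and 3527 in the GSI 48 h libraries, against 1092, 866 and 1155 in the DMSO 48 h libraries, a fold change of 1.30 ± 0.25 (SE, adjusted p = 0.014). CACNA1C-AS2 had 1017, 644 and 1274 in the GSI 48 h libraries, against 337, 455 and 421 in the DMSO 48 h libraries, a fold change of 1.23 ± 0.22 (SE, adjusted p = 0.01). CACNA1C had 2734, 1622 and 2834 in the GSI 48 h libraries, against 1269, 923 and 1327 in the DMSO 48 h libraries, a fold change of 1.00 ± 0.23 (SE, adjusted p = 0.0225). No group of these 3 genes overlapped its counterpart, and GSI library 2 was the lowest GSI library for each. Of the exonic bases, 21.4% of CACNA1C-AS1 and 13.8% of CACNA1C-AS2 lie in CACNA1C exons. If reads were not counted by strand, this overlap may affect the 3 values, to an unknown extent. CACNA1C-AS1 was not called without GSI 48 h library 1 or 3 or DMSO 48 h library 1 or 2 (adjusted p = 0.0732, 0.0711, 0.0502 and 0.0539), nor CACNA1C-AS2 without GSI 48 h library 1 or 3 or DMSO 48 h library 1 (adjusted p = 0.058, 0.0583 and 0.0502), nor CACNA1C without GSI 48 h library 1 or 3 or DMSO 48 h library 1 or 2 (adjusted p = 0.111, 0.103, 0.0587 and 0.0837).

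SATB1 is an organiser of chromatin in developing T cells. SATB1-AS1 (chromosome 3) had 535, 309 and 601 in the GSI 48 h libraries, against 213, 203 and 232 in the DMSO 48 h libraries, a fold change of 1.10 ± 0.24 (SE, adjusted p = 0.0204). SATB1 had 10808, 7835 and 13025 in the GSI 48 h libraries, against 3890.3, 4317 and 6615 in the DMSO 48 h libraries, a fold change of 1.10 ± 0.22 (SE, adjusted p = 0.0159). The pair shares no exonic base, its starts lie 564 bases apart, and the ratio changed by -0.01 ± 0.21 (SE, adjusted p = 0.992). SATB1-AS1 was not called without GSI 48 h library 1 or 3 or DMSO 48 h library 1 or 2 (adjusted p = 0.103, 0.0961, 0.0626 and 0.0666), nor SATB1 without GSI 48 h library 1 or 3 or DMSO 48 h library 1 or 2 (adjusted p = 0.0791, 0.0843, 0.0624 and 0.0585). MMP25-AS1 had 2772, 1634 and 2839.6 in the GSI 48 h libraries, against 1028, 834 and 1068 in the DMSO 48 h libraries, a fold change of 1.27 ± 0.31 (SE, adjusted p = 0.0276), beside 1.40 ± 0.37 (SE, adjusted p = 0.0358) for MMP25. MMP25-AS1 was not called without GSI 48 h library 1 or 3 or DMSO 48 h library 1, 2 or 3 (adjusted p = 0.128, 0.117, 0.0698, 0.0958 and 0.052), nor MMP25 without GSI 48 h library 1 or 3 or DMSO 48 h library 1, 2 or 3 (adjusted p = 0.154, 0.137, 0.0679, 0.119 and 0.0759).

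The 4 antisense genes that fell at 48 h were CARD8-AS1, LIPT2-AS1, LCT-AS1 and REPIN1-AS1. CARD8-AS1 had 326, 359 and 411 in the GSI 48 h libraries, against 622, 774 and 538 in the DMSO 48 h libraries, a fold change of -0.81 ± 0.21 (SE, adjusted p = 0.0312), beside -0.08 ± 0.12 (SE, adjusted p = 0.691) for CARD8. The groups did not overlap, and the ratio changed by -0.73 ± 0.21 (SE, adjusted p = 0.0427). That ratio was not called without GSI 48 h library 1, 2 or 3 or DMSO 48 h library 1, 2 or 3 (adjusted p = 0.231, 0.0701, 0.0595, 0.111, 0.143 and 0.0763). LIPT2-AS1 (chromosome 11) changed by -0.76 ± 0.20 (SE, adjusted p = 0.033) beside -0.10 ± 0.14 (SE, adjusted p = 0.673) for LIPT2, a lipoyl transferase of mitochondria. LCT-AS1 had 4066, 5545 and 3556 in the GSI 48 h libraries, against 7501, 7580.3 and 6537 in the DMSO 48 h libraries, a fold change of -0.74 ± 0.17 (SE, adjusted p = 0.0232), beside -0.78 ± 0.22 (SE, adjusted p = 0.0453) for LCT. REPIN1-AS1 (chromosome 7) changed by -0.52 ± 0.15 (SE, adjusted p = 0.0438) beside -0.63 ± 0.10 (SE, adjusted p = 0.00522) for REPIN1, a zinc finger protein. LCT was not called without GSI 12 h library 1, DMSO 12 h library 1, 2 or 3, GSI 48 h library 1 or 3 or DMSO 48 h library 1, 2 or 3 (adjusted p = 0.0556, 0.0576, 0.0507, 0.0562, 0.166, 0.163, 0.126, 0.102 and 0.071). CARD8-AS1 lost its call without GSI 48 h library 1 or 3 or DMSO 48 h library 1 or 2 (adjusted p = 0.138, 0.0881, 0.0753 and 0.116), LIPT2-AS1 without GSI 48 h library 1 or 3 or DMSO 48 h library 1 or 2 (adjusted p = 0.153, 0.114, 0.104 and 0.0909), LCT-AS1 without GSI 48 h library 1 or 3 or DMSO 48 h library 1 or 2 (adjusted p = 0.109, 0.108, 0.0708 and 0.0792) and REPIN1-AS1 without GSI 12 h library 1, DMSO 12 h library 1 or 3, GSI 48 h library 1 or 3 or DMSO 48 h library 1, 2 or 3 (adjusted p = 0.0568, 0.0544, 0.0562, 0.144, 0.174, 0.105, 0.142 and 0.0579). The adjusted p reached 0.138 for CARD8-AS1, 0.153 for LIPT2-AS1, 0.109 for LCT-AS1 and 0.274 for REPIN1-AS1 over the alternatives, and none of the 4 was called when each library was scaled to the upper quartile of its own values above 0.

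The antisense-to-sense ratio fell furthest at 48 h for FGD5 and CHRM3. FGD5-AS1 had 16109.7, 19360.1 and 16636 in the GSI 48 h libraries, against 22949.9, 23788 and 19869.9 in the DMSO 48 h libraries, a fold change of -0.35 ± 0.11 (SE, adjusted p = 0.0517). With the replicate block over all libraries, including those at 12 h that did not all reach the cutoff for pairing, limma gave FGD5-AS1 an adjusted p = 0.00675. FGD5 had 98.0, 54.2 and 83.8 in the GSI 48 h libraries, against 16.7, 16.9 and 40.4 in the DMSO 48 h libraries, a fold change of 1.72 ± 0.43 (SE, adjusted p = 0.0291), and the ratio changed by -2.07 ± 0.47 (SE, adjusted p = 0.0149). CHRM3-AS2 (chromosome 1) lies inside the gene of a muscarinic acetylcholine receptor. It had 151, 134 and 352 in the GSI 48 h libraries, against 726, 661 and 367 in the DMSO 48 h libraries, a fold change of -1.53 ± 0.50 (SE, adjusted p = 0.0684). All GSI values lay below all DMSO values, the closest being GSI library 3 and DMSO library 3. CHRM3 changed by 0.36 ± 0.19 (SE, adjusted p = 0.218), and the ratio by -1.89 ± 0.40 (SE, adjusted p = 0.0134). The FGD5 ratio was not called without GSI 48 h library 1 or 3 or DMSO 48 h library 1 or 2 (adjusted p = 0.101, 0.0656, 0.0622 and 0.076), nor the CHRM3 ratio without GSI 48 h library 1 or DMSO 48 h library 1 or 2 (adjusted p = 0.101, 0.0575 and 0.0533). FGD5 was not called without GSI 48 h library 1 or 3 or DMSO 48 h library 1 or 2 (adjusted p = 0.133, 0.112, 0.0902 and 0.102). The C1RL ratio changed by -0.79 ± 0.18 (SE, adjusted p = 0.0149) and was not called without GSI 48 h library 1 or 3 or DMSO 48 h library 1 (adjusted p = 0.101, 0.0536 and 0.0622).

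Within DMSO, 4 antisense genes were higher and 4 lower at 48 h than at 12 h, beside a background of 2.69% higher and 3.09% lower, 5.78% in all, among genes with the same mean threshold. With the replicate number within treatment as a block, 42 were called higher and 18 lower, and 98 sense partners and 44 ratios in either direction. That fit called 18.2% of the genes with the same mean threshold higher and 20.6% lower. DLGAP1-AS2, SPRY4-AS1, SLC38A4-AS1 and NINJ2-AS1 rose, and FOXP4-AS1, LCT-AS1, KTN1-AS1 and SLC25A25-AS1 fell. SPRY4 is an inhibitor of receptor tyrosine kinase signalling. SPRY4-AS1 (chromosome 5) had 124, 197 and 138 in the DMSO 48 h libraries, against 66.3, 82.9 and 90.2 in the DMSO 12 h libraries, a log2 fold change of 0.91 ± 0.20 (SE, adjusted p = 0.0179). SPRY4 had 3151, 3769 and 3497 in the DMSO 48 h libraries, against 1925, 2277 and 1878 in the DMSO 12 h libraries, a fold change of 0.78 ± 0.11 (SE, adjusted p = 0.00144). Both rose without overlap of the groups. DLGAP1-AS2 (chromosome 18), whose partner, a synaptic scaffold, was not kept, changed by 1.04 ± 0.24 (SE, adjusted p = 0.0245). SLC38A4-AS1 changed by 0.84 ± 0.20 (SE, adjusted p = 0.0348), and NINJ2-AS1, inside the gene of the adhesion protein ninjurin 2, by 0.61 ± 0.14 (SE, adjusted p = 0.0272).

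LCT-AS1 had 7501, 7580.3 and 6537 in the DMSO 48 h libraries, against 12159, 12998 and 13533 in the DMSO 12 h libraries, a fold change of -0.84 ± 0.17 (SE, adjusted p = 0.0129). LCT had 406, 329 and 315 in the DMSO 48 h libraries, against 983, 858 and 1072 in the DMSO 12 h libraries, a fold change of -1.47 ± 0.22 (SE, adjusted p = 0.00227). The groups lay well apart in both genes. FOXP4-AS1 (chromosome 6) changed by -0.85 ± 0.21 (SE, adjusted p = 0.0335), KTN1-AS1 (chromosome 14) by -0.77 ± 0.17 (SE, adjusted p = 0.0198) and SLC25A25-AS1 by -0.49 ± 0.13 (SE, adjusted p = 0.0486). Their partners, the transcription factor FOXP4, the vesicle protein KTN1 and SLC25A25, were not called. None of the 8 antisense calls over time in DMSO held in every leave-one-out fit, each being called in 4 (SLC25A25-AS1) to 9 of the 12. Those fits had no replicate block. With the replicate number within treatment as a block and all libraries, limma called all 8. The adjusted p then ran from 8.14e-06 (LCT-AS1) to 0.000753 (SLC38A4-AS1). The antisense-to-sense ratio was called in 4 pairs, 1 higher and 3 lower, beside 0.776% of all pairs (0.311% higher and 0.466% lower). It rose by 1.28 ± 0.24 (SE, adjusted p = 0.0238) for TSPOAP1-AS1, whose partner, a protein that binds the mitochondrial translocator protein, changed by -1.14 ± 0.22 (SE, adjusted p = 0.0101). It fell for TRAF3IP2, the adaptor of interleukin 17 signalling, which changed by 1.12 ± 0.16 (SE, adjusted p = 0.00131) while TRAF3IP2-AS1 changed by 0.24 ± 0.15 (SE, adjusted p = 0.451). The other falls were in KTN1-AS1, at -0.78 ± 0.17 (SE, adjusted p = 0.0374), and SLC25A25-AS1, at -0.58 ± 0.13 (SE, adjusted p = 0.0453). The TSPOAP1 ratio was not called without DMSO 12 h library 2 or 3 or DMSO 48 h library 2 or 3 (adjusted p = 0.143, 0.0661, 0.075 and 0.126), nor the TRAF3IP2 ratio without DMSO 48 h library 3 (adjusted p = 0.0585), and those of KTN1 and SLC25A25 were called in 2 of the 12 fits. With the block within treatment, limma gave the TSPOAP1, TRAF3IP2, KTN1 and SLC25A25 ratios adjusted p = 6.99e-13, 4.23e-10, 6.55e-07 and 3.65e-07.

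Within GSI, no antisense gene was called higher at 48 h than at 12 h and 4 were lower, beside a background of 2.02% higher and 2.72% lower, 4.74% in all. At an unadjusted p under 0.05 there were 31, beside 2282 of the 12794 genes with the same mean threshold. In either direction edgeR called 3 antisense genes and DESeq2 9. Of the genes with that mean, edgeR called 2.01% higher and 2.59% lower, and DESeq2 3.44% and 4.74%. With the block within treatment 36 antisense genes were called higher and 20 lower, and 94 sense partners and 37 ratios in either direction. That fit called 15.7% of the genes with the same mean threshold higher and 21.0% lower. Upper-quartile scaling over each library's own values above 0 moved the median of the genes with that mean in this comparison by 0.13 on the log2 scale. CHRM3-AS2 had 151, 134 and 352 in the GSI 48 h libraries, against 631, 697 and 2674 in the GSI 12 h libraries, a fold change of -2.45 ± 0.50 (SE, adjusted p = 0.0142). At 12 h library 3 was far above the others, and without overlap all 48 h values were below all 12 h values. CHRM3 changed by -0.08 ± 0.19 (SE, adjusted p = 0.896), and the ratio by -2.37 ± 0.40 (SE, adjusted p = 0.0131). HECW2-AS1 (chromosome 2), inside the gene of a ubiquitin ligase, had 652, 493 and 427 in the GSI 48 h libraries, against 1417, 1548 and 1289 in the GSI 12 h libraries, a fold change of -1.45 ± 0.36 (SE, adjusted p = 0.0381). HECW2 was low, below 80 in every library of these groups, and changed by -1.32 ± 0.39 (SE, adjusted p = 0.0873).

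LCT-AS1 had 4066, 5545 and 3556 in the GSI 48 h libraries, against 8668, 10249 and 6438 in the GSI 12 h libraries, a fold change of -0.94 ± 0.17 (SE, adjusted p = 0.00584), and LCT changed by -1.47 ± 0.22 (SE, adjusted p = 0.00186). LCT-AS1 was called in each leave-one-out fit of this comparison. FOXP4-AS1 changed by -0.79 ± 0.21 (SE, adjusted p = 0.0498). CHRM3-AS2 was not called without GSI 48 h library 1 or 2 (adjusted p = 0.0613 and 0.057), nor its ratio without GSI 12 h library 3 or GSI 48 h library 2 (adjusted p = 0.0506 and 0.114), and HECW2-AS1 was not called without GSI 12 h library 1, 2 or 3, DMSO 12 h library 1, GSI 48 h library 1, 2 or 3 or DMSO 48 h library 1 (adjusted p = 0.107, 0.0968, 0.0659, 0.0512, 0.0553, 0.0965, 0.148 and 0.0509). FOXP4-AS1 was called in 1 of the 12 leave-one-out fits. With the block within treatment and all libraries, limma called all 4. The adjusted p was 3.03e-07 for CHRM3-AS2, 2.26e-06 for HECW2-AS1, 2.64e-06 for LCT-AS1 and 0.00125 for FOXP4-AS1. The ratio rose for TSPOAP1, by 1.17 ± 0.24 (SE, adjusted p = 0.0391), and was not called without GSI 12 h library 1 or 3, DMSO 12 h library 1, GSI 48 h library 2 or 3 or DMSO 48 h library 1 or 2 (adjusted p = 0.191, 0.17, 0.0524, 0.158, 0.135, 0.051 and 0.0535). With the block within treatment, limma gave the TSPOAP1 and CHRM3 ratios adjusted p = 5.22e-12 and 3.03e-19.

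The change of the GSI effect between 12 and 48 h was tested directly. Among the antisense genes limma called 0, edgeR 0 and DESeq2 0, with 8 at an unadjusted p under 0.05, and among all genes kept limma called 0. Of the 12794 genes with a mean of at least 100, 581 had an unadjusted p under 0.05 in limma. DESeq2 called 0.0625% of these 12794 genes higher and 0.36% lower. Replicate numbers paired the libraries over time. With the number within treatment as a block, 5 of the 286 antisense genes were called higher and 11 lower for this change. Among all genes with a mean of at least 100, this fit called 2.74% higher and 5.5% lower. It also called 25 sense partners and 11 ratios in either direction. The effects on SLC38A4-AS1 at 48 h and at 12 h differed by -0.93 on the log2 scale, with adjusted p = 0.81 without and 0.0179 with the block. For CHRM3-AS2 the difference was -1.81, with adjusted p = 0.999 without and 0.000485 with the block. With the block the effect was also lower at 48 h than at 12 h for NINJ2-AS1, IER5L-AS1, HECW2-AS1, SPRY4-AS1, LEF1-AS1, VLDLR-AS1, SBF2-AS1, ZNF436-AS1 and PCGF3-AS1, and higher for SH3BP5-AS1, DBH-AS1, SATB1-AS1, SLC25A25-AS1 and CACNA1C-AS1. For antisense genes outside these 16, a call at only 1 of the times is not shown to differ between times by either fit.

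By layout of the pair, the median fold change at 12 h was 0.24 for the 125 antisense genes whose start overlaps that of the partner, of which 29 rose and 3 fell. It was 0.24 for the 64 inside the partner (11 and 2), 0.26 for the 17 whose starts face away (4 and 0), 0.07 for the 18 that span the partner (2 and 0) and 0.03 for the 61 whose ends overlap (5 and 6). At 48 h the medians were 0.20, 0.18, 0.11, 0.12 and 0.07 in the same order of layouts. By shared exonic bases, the median at 12 h was 0.23 for 70 genes with none in partner exons (13 rose, 1 fell), 0.09 for 103 with under 10%, 0.24 for 106 with 10 to under 50% and -0.06 for 7 with 50% or more.

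**Figure D5:**
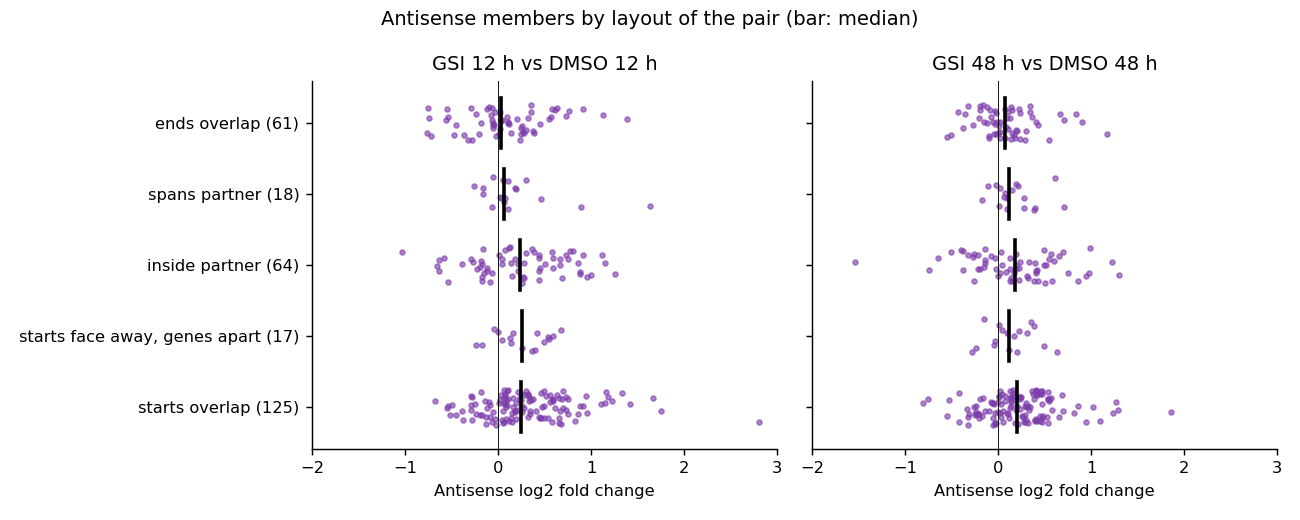
Log2 fold change of the antisense genes, GSI against DMSO, at 12 h (left) and 48 h (right), by layout of the pair with the number of genes. Each point is an antisense gene and the bar is the median, which at 12 h is 0.24 where starts overlap and 0.03 where ends overlap.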

How the data were processed

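Poly-A RNA of 12 CUTLL1 libraries was measured, 3 in each of 4 groups taken from the labels. The authors deposited a normalised signal, in which every value is a read count over the size factor of its library. TopHat2 2.0.10 and HTSeq 0.6.1 on hg19, FastQC 0.10.1 and DESeq2 are named in the submitters' processing notes. Neither the annotation nor the strand setting is stated there. Reads were recovered by dividing each library by its smallest value above 0, and 100% of values came out whole within 0.01.

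A gene was kept with values of 10 or more in 3 or more libraries (19281 genes). Group means over all 12 libraries were fitted to log2(value + 1), which understates changes of low genes, with limma 3.58.1 in R 4.3.3 (trended prior). SE is its moderated standard error, p-values were Benjamini-Hochberg adjusted over all kept genes, and calls have an adjusted p under 0.05. The antisense-to-sense ratio was fitted the same way over 644 pairs. The edgeR 4.0.16 quasi-likelihood test and DESeq2 1.42.0 on recovered reads were alternatives, with other pseudocounts, filters, scaling, replicate blocks and libraries left out. The fits were tested on simulated data.

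No label says that replicates were grown separately, so the p-values cover variation among these libraries, which may be technical. By a cutoff of 0.1, replicate numbers paired the libraries over time and at 48 h, where every same-numbered pair of deviations correlated above it (0.103, 0.157 and 0.104 at 48 h, 0.578, 0.612 and 0.545 in DMSO over time, 0.40, 0.545 and 0.466 in GSI over time), and not at 12 h (0.096, 0.272 and 0.0676). The values at 48 h lie close to this cutoff. At 12 h the best correlation with another number was 0.0547, -0.104 and 0.139, so only number 3 correlated better with another number.

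The genes and lists were chosen with earlier results of these data known. By rule, the 6 largest rises and falls among calls without overlap of groups in each comparison, the 4 largest ratio shifts each way, the 10 highest means and antisense genes of T-cell, Notch, hypoxia or chromatin partners were named. Other genes named were chosen after their values were seen, and 1 gene that the rule takes is not reported here. Layouts and lengths come from GENCODE 29, which is on another build than the files, so no coordinates are taken from it.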

Additional observations from a re-analysis of the deposited data

How the results depend on the processing

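Counts of calls depended on single libraries and on the replicate block, and pseudocounts of 0.5 and 5 moved none of them by more than 1.5 times. Leaving out both DMSO libraries labelled 2, or all 4 libraries labelled 2, and upper-quartile scaling over kept genes or genes above 0 in any library (the same genes in every library) were chosen after seeing the data. Every count below is the number of calls in either direction, the causes of the shifts were not tested, and the count of the fit described above comes before the brackets.

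The number of antisense genes called was for GSI against DMSO at 12 h 62 (41 with upper-quartile scaling over own genes, 105 with a replicate block over all libraries, 25 with both DMSO libraries 2 left out, 22 to 80 with 1 library left out), for GSI against DMSO at 48 h 18 (33 with only the groups compared, 66 with a replicate block over all libraries, 43 with both GSI libraries 2 left out, 4 with both DMSO libraries 2 left out, 49 with DESeq2, 1 to 33 with 1 library left out). It was for DMSO over time 8 (4 with upper-quartile scaling over own genes, 21 with a replicate block over all libraries, 60 with a replicate block within treatment, 0 with both DMSO libraries 2 left out, 2 with all 4 libraries 2 left out, 17 with DESeq2, 0 to 11 with 1 library left out), for GSI over time 4 (1 with only the groups compared, 21 with a replicate block over all libraries, 56 with a replicate block within treatment, 2 with both GSI libraries 2 left out, 9 with DESeq2, 1 to 5 with 1 library left out), for the change of the GSI effect 0 (16 with a replicate block within treatment, 0 with 1 library left out). The antisense genes themselves numbered 400 at a mean of at least 50 and 187 at a mean of at least 200.

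The number of sense partners called was for GSI against DMSO at 12 h 63 (29 with upper-quartile scaling over own genes, 41 with only the groups compared, 104 with a replicate block over all libraries, 96 with both GSI libraries 2 left out, 20 with both DMSO libraries 2 left out, 25 to 89 with 1 library left out), for GSI against DMSO at 48 h 30 (13 with upper-quartile scaling over own genes, 89 with a replicate block over all libraries, 73 with both GSI libraries 2 left out, 5 with both DMSO libraries 2 left out, 50 with DESeq2, 2 to 52 with 1 library left out). It was for DMSO over time 15 (8 with upper-quartile scaling over own genes, 40 with a replicate block over all libraries, 98 with a replicate block within treatment, 4 with both DMSO libraries 2 left out, 6 with all 4 libraries 2 left out, 6 to 16 with 1 library left out), for GSI over time 10 (3 with only the groups compared, 30 with a replicate block over all libraries, 94 with a replicate block within treatment, 4 with all 4 libraries 2 left out, 20 with DESeq2, 3 to 10 with 1 library left out), for the change of the GSI effect 0 (1 with a replicate block over all libraries, 25 with a replicate block within treatment, 1 with DESeq2, 0 with 1 library left out).

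The number of antisense-to-sense ratios called was for GSI against DMSO at 12 h 51 (29 with no filter on low values, 84 with a replicate block over all libraries, 20 with both DMSO libraries 2 left out, 20 to 62 with 1 library left out), for GSI against DMSO at 48 h 23 (8 with no filter on low values, 36 with only the groups compared, 65 with a replicate block over all libraries, 40 with both GSI libraries 2 left out, 7 with both DMSO libraries 2 left out, 3 to 30 with 1 library left out). It was for DMSO over time 4 (1 with no filter on low values, 2 with only the groups compared, 8 with a replicate block over all libraries, 44 with a replicate block within treatment, 2 with both GSI libraries 2 left out, 0 with both DMSO libraries 2 left out, 1 with all 4 libraries 2 left out, 0 to 4 with 1 library left out), for GSI over time 2 (0 with no filter on low values, 1 with only the groups compared, 37 with a replicate block within treatment, 0 with both GSI libraries 2 left out, 1 with both DMSO libraries 2 left out, 0 to 2 with 1 library left out), for the change of the GSI effect 0 (11 with a replicate block within treatment, 0 with 1 library left out).

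The number of all kept genes called was for GSI against DMSO at 12 h 4144 (2178 with upper-quartile scaling over own genes, 2607 with only the groups compared, 6951 with a replicate block over all libraries, 1421 with both DMSO libraries 2 left out, 1599 to 5662 with 1 library left out), for GSI against DMSO at 48 h 1866 (1075 with no filter on low values, 976 with upper-quartile scaling over own genes, 5261 with a replicate block over all libraries, 4042 with both GSI libraries 2 left out, 313 with both DMSO libraries 2 left out, 3231 with DESeq2, 119 to 3036 with 1 library left out). It was for DMSO over time 874 (482 with upper-quartile scaling over own genes, 2368 with a replicate block over all libraries, 5622 with a replicate block within treatment, 194 with both DMSO libraries 2 left out, 252 with all 4 libraries 2 left out, 1568 with DESeq2, 353 to 1066 with 1 library left out), for GSI over time 768 (477 with only the groups compared, 1941 with a replicate block over all libraries, 5544 with a replicate block within treatment, 427 with both GSI libraries 2 left out, 398 with all 4 libraries 2 left out, 1257 with DESeq2, 443 to 737 with 1 library left out), for the change of the GSI effect 0 (9 with upper-quartile scaling over own genes, 40 with a replicate block over all libraries, 1177 with a replicate block within treatment, 1 with both GSI libraries 2 left out, 62 with DESeq2, 0 to 4 with 1 library left out).

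Of the named results, values near 0 that were not called changed sign. On the log2 scale, OIP5-AS1 at 12 h (-0.07) gave 0.016 with upper-quartile scaling over kept genes. OIP5-AS1 at 48 h (0.02) gave -0.048 to 0.12 with 1 library left out, -0.038 with upper-quartile scaling over genes above 0 in any library, -0.030 with both GSI libraries 2 left out. PSMA3-AS1 at 12 h (-0.04) gave -0.10 to 0.018 with 1 library left out, 0.052 with upper-quartile scaling over kept genes, 0.0096 with both GSI libraries 2 left out. THAP9-AS1 at 12 h (-0.09) gave 0.0027 with upper-quartile scaling over kept genes, 0.028 with all 4 libraries 2 left out. THAP9-AS1 at 48 h (0.02) gave -0.065 to 0.11 with 1 library left out, -0.034 with upper-quartile scaling over genes above 0 in any library. THUMPD3-AS1 at 48 h (0.08) gave -0.0094 to 0.18 with 1 library left out, -0.0094 with both DMSO libraries 2 left out, -0.051 with all 4 libraries 2 left out. PCBP1-AS1 at 12 h (0.03) gave -0.076 to 0.15 with 1 library left out, -0.065 with upper-quartile scaling over genes above 0 in any library, -0.069 with both DMSO libraries 2 left out. PCBP1-AS1 at 48 h (0.01) gave -0.064 to 0.11 with 1 library left out, -0.049 with upper-quartile scaling over genes above 0 in any library, -0.064 with both DMSO libraries 2 left out, -0.016 with all 4 libraries 2 left out. FOXN3-AS1 at 12 h (-0.18) gave -0.40 to 0.061 with 1 library left out. CDKN2B-AS1 at 12 h (0.08) gave -0.0063 to 0.22 with 1 library left out, -0.017 with upper-quartile scaling over genes above 0 in any library. ITGB2-AS1 at 48 h (0.04) gave -0.23 to 0.25 with 1 library left out, -0.014 with upper-quartile scaling over genes above 0 in any library, -0.046 with both DMSO libraries 2 left out. ARRDC1-AS1 at 12 h (0.04) gave -0.052 to 0.11 with 1 library left out, -0.054 with upper-quartile scaling over genes above 0 in any library, -0.0042 with both GSI libraries 2 left out, -0.052 with both DMSO libraries 2 left out, -0.10 with all 4 libraries 2 left out. ARRDC1-AS1 at 48 h (0.01) gave -0.10 to 0.068 with 1 library left out, -0.044 with upper-quartile scaling over genes above 0 in any library, -0.0073 with both GSI libraries 2 left out, -0.10 with both DMSO libraries 2 left out, -0.12 with all 4 libraries 2 left out.

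Replicate numbers do not pair the libraries at 12 h, where the block gave 105 antisense calls against 62. Of the 62 and 18 antisense calls at 12 and 48 h, edgeR kept 59 and 16 and DESeq2 kept 62 and 18. Over all alternatives of the named results, 2195 values stayed on their side of the threshold with their direction, 323 lost a call, 60 gained one and 49 changed sign. Depth limits the low genes most, such as KIF25 and FGD5.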

Other observations

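Other long RNAs are given for comparison as values only. Of 125 divergent long RNAs (symbols ending in -DT) with a mean of at least 100, 30 rose and 2 fell with GSI at 12 h (24.0% and 1.6%), at a median log2 change of 0.25, while 8 rose and 1 fell at 48 h. Of 119 intergenic long RNAs with LINC symbols, 30 rose and 9 fell at 12 h, with a median of 0.19, and 18 rose and 2 fell at 48 h. Whether these shares differ from those of the antisense genes was not tested. EPB41L4A-AS1, HECW2-AS1 and C2CD4D-AS1, which after FGD5-AS1 had the highest levels relative to a kept partner, stood at 349.9, 599 and 660.1 per kilobase beside 1.48, 2.90 and 4.98 for EPB41L4A, HECW2 and C2CD4D.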
